A study of Mus musculus with 15 samples.

Results

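Mouse OT-I CD8 T cells kept in a memory-inducing cocktail were sorted after culture by the surface proteins CD44 and CD62L, and the cells at the ends of that sort are compared here. They are the CD44loCD62L+ cells (3 libraries) and the CD44+CD62L- cells (3 libraries), which are 6 of the 15 RNA-seq libraries of the study, chosen by their sort labels alone. OT-I mice carry a transgenic T cell receptor for an ovalbumin peptide. CD8 T cells of these mice, isolated by negative selection, were stimulated with bone-marrow-derived dendritic cells coated with the peptide SIINFEKL. Both populations were grown for 14 days in the cocktail (TWS119, 2-deoxyglucose and the interleukins IL-7 and IL-21), with a passage after the first week, so the same agents acted on both. The interleukins of this mixture signal through the common gamma chain, 2-deoxyglucose blocks glycolysis, and TWS119 inhibits the kinase GSK3. Cocktail cells of the middle gate, CD44+CD62L+ (3 libraries), also grown for 14 days, are given beside the ends of the sort. Cells grown for 14 days in IL-2 and sorted as CD44+CD62L- (3 libraries), and naive cells at day 0 labelled CD44loCD62L+ (3 libraries), serve as landmarks. The study's design text writes the naive gate as CD44-CD62L+. It states that the 3 libraries of a population were technical replicates of its RNA, so every p-value below measures the spread between preparations of the same RNA and not between cultures or mice.

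CD44 is a receptor for hyaluronan that T cells gain on activation and keep as memory cells. CD62L is a surface protein with which T cells enter lymph nodes, and activated effector cells lose it. Cells with CD62L are called naive or central memory cells, and cells without it effector or effector memory cells. The transcription factor KLF2 keeps T cells quiescent and drives S1pr1, the receptor through which lymphocytes leave lymph nodes.

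Expression was given as FPKM, fragments scaled for transcript length and library size. Differences are CD44loCD62L+ minus CD44+CD62L- cells on the scale of log2(FPKM + 1), where the added 1 shrinks the differences of genes with low values, and they are given with the standard error (SE) and the adjusted p of limma over 11242 genes tested. A gene was called changed at an adjusted p under 0.05 together with a log2 difference of at least 1 in size. Technical replicates agreed closely: above 100 FPKM the median coefficient of variation was 0.834% in CD44loCD62L+ libraries and 0.900% in CD44+CD62L- libraries, and between 1 and 10 FPKM it was 3.94% and 4.42%. Read totals were not given, but steps between low values showed the relative depth of the libraries, on a scale that centres on 1. It was 1.14 to 1.16 in CD44loCD62L+ libraries and 0.984 to 0.997 in CD44+CD62L- libraries, and its part in the results was not tested. CD8 T cell markers ran high in both populations: all 8 were tested, none was called, and their FPKM summed to between 3410 and 3419 in CD44loCD62L+ libraries and between 3566 and 3584 in CD44+CD62L- libraries.

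Of the 11242 genes, 221 were called (1.97%), 55 of them higher in CD44loCD62L+ cells (0.489%) and 166 lower (1.48%). With 0.1 FPKM added before the log in place of 1, 463 were called, and with 5 FPKM added 94 were. The genes that rose included genes of lymph node homing and T cell quiescence, among them Pde2a, Klf2, S1pr1, Klf3 and Ccr7. Among the genes that fell, 69 of the 166 were in the mitosis or DNA replication lists, among them Aurka, Ccnb1, Spc25, Cdk1 and Rrm2. The other named genes that fell included the importin gene Kpna2, the granzyme gene Gzmc, the transcription factor gene Batf3 and the Ly49 receptor gene Klra5. Called genes that rose had a median log2 difference of 1.29 in size and 8 of them passed 2, while those that fell had a median of 1.19 in size and 6 of them passed 2. Those past 2 include all 9 called small RNA genes, each listed at 0 throughout a population, for which no fold is given below. They also include Atp6v0c-ps2, whose CD44+CD62L- libraries ranged from 0.0136 to 20.4 FPKM and overlapped the CD44loCD62L+ libraries. Over all genes tested the median difference was -0.0064 and the median size 0.183. The adjusted p alone was passed by 8347 genes (74.2%), 3989 higher (35.5%) and 4358 lower (38.8%), and libraries of the populations did not overlap for 8663 genes (77.1%), so in these data the minimum fold, not the p, decided the calls. Of the 221 called genes, 217 had libraries that did not overlap. The counts of list members below are to be read against these shares over all genes tested.

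**Figure D1:**
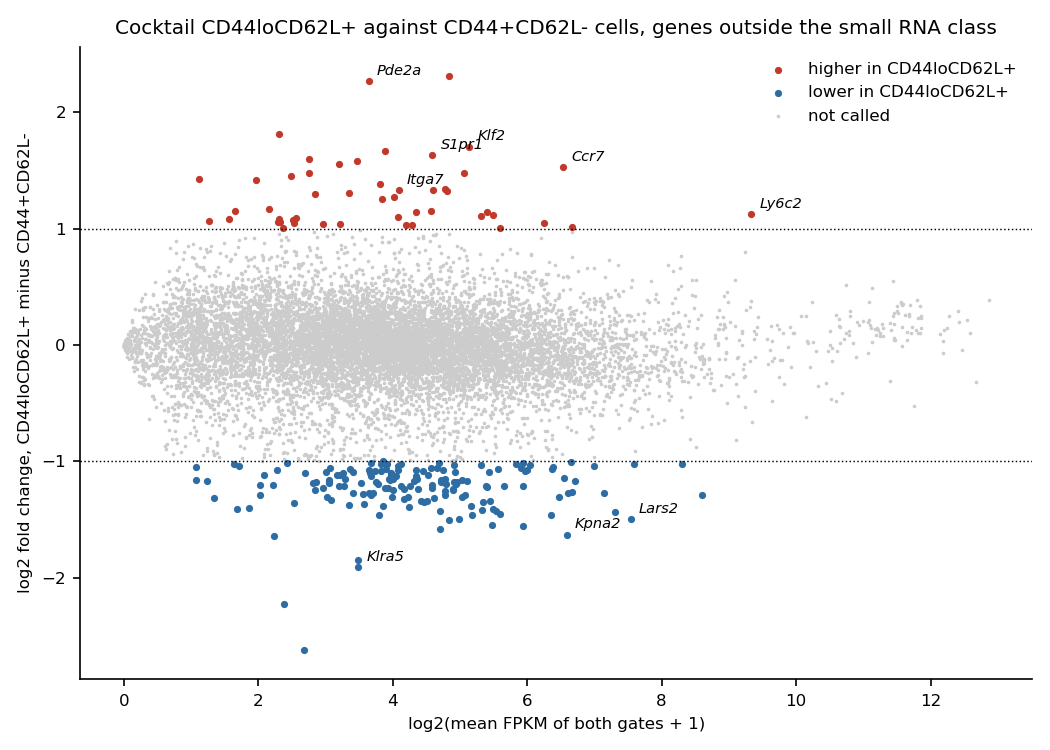
The log2 difference of each gene outside the small RNA class (CD44loCD62L+ minus CD44+CD62L- cocktail cells, vertical axis) is plotted against the log2 of its mean FPKM in both populations plus 1 (horizontal axis). Dotted lines mark a difference of 1 in either direction. Pde2a is at 2.27 and Klf2 at 1.71, and called lower genes crowd just below -1.

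The gates were set on protein, and the RNA of the gated CD44 was compared as a check of the labels and not as a finding. Cd44 (chr2:102811141-102901669 in GRCm38.p6, RefSeq) differed far less than its gate. It had 31.9, 30.7 and 31.3 FPKM in CD44loCD62L+ libraries and 38.5, 38.7 and 39.2 FPKM in CD44+CD62L- libraries, a log2 difference of -0.30 ± 0.0261 (limma adjusted p = 2.41e-07), which was not called. In the CD44+CD62L+ libraries it had 37.8, 39.5 and 38.3 FPKM, and the naive mean was 7.24 FPKM. The CD44lo cells of the cocktail therefore held Cd44 RNA at a level nearer to that of the CD44+ cocktail cells than to that of naive cells.

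Ccr7 and S1pr1, receptors of lymph node entry and exit, were among the genes that rose. Of 39 naive and central memory genes tested, 8 rose (Ccr7, S1pr1, Klf2, Klf3, Dapl1, Actn1 and Ly6c2 among them) and 0 fell, with a median log2 difference of 0.66. By adjusted p alone 34 were higher and 4 lower. Klf2 (chr8:72319062-72321654) had 52.8, 53.4 and 51.9 FPKM in CD44loCD62L+ libraries, against 15.5, 15.3 and 15.6 FPKM in CD44+CD62L- libraries, a log2 difference of 1.71 ± 0.0182 (limma adjusted p = 4.08e-16). Its levels in the CD44+CD62L+ libraries, 17.7, 17.0 and 17.3 FPKM, lay close to those of the CD44+CD62L- cells. S1pr1 (chr3:115710433-115715055) had 35.8, 34.7 and 35.5 FPKM in CD44loCD62L+ libraries, against 10.9, 10.5 and 10.7 FPKM in CD44+CD62L- libraries (1.63 ± 0.0168, limma adjusted p = 3e-16). Here too the CD44+CD62L+ libraries, at 14.2, 14.1 and 14.0 FPKM, sat near the low end. Ccr7 (chr11:99144199-99155077), the receptor for the chemokines that guide T cells into lymph nodes, had 137, 136 and 138 FPKM in CD44loCD62L+ libraries, against 46.5, 47.9 and 46.4 FPKM in CD44+CD62L- libraries (1.53 ± 0.0351, limma adjusted p = 2.85e-13). Its CD44+CD62L+ libraries, with 77.0, 75.1 and 76.3 FPKM, fell between the ends without touching either.

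The steps across the middle gate differed from gene to gene. They share the CD44+CD62L+ libraries with each other and the end libraries with the comparison above, so they are given only side by side. For Klf2 the log2 difference was 1.55 between CD44loCD62L+ and CD44+CD62L+ cells and 0.15 between CD44+CD62L+ and CD44+CD62L- cells. For S1pr1 these values were 1.27 and 0.37, and for Ccr7 they were 0.84 and 0.69. Klf3 was high among cocktail cells in the CD44loCD62L+ gate, with 12.53, 12.99 and 12.49 FPKM there, 3.21, 3.78 and 3.67 FPKM in CD44+CD62L+ cells and 3.46, 3.80 and 3.69 FPKM in CD44+CD62L- cells. Its second step was -0.03 with an SE of 0.0484 (limma adjusted p = 0.628), and the libraries of the 2 CD44+ gates overlapped. Klf3 encodes a Krüppel-like repressor.

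**Figure D2:**
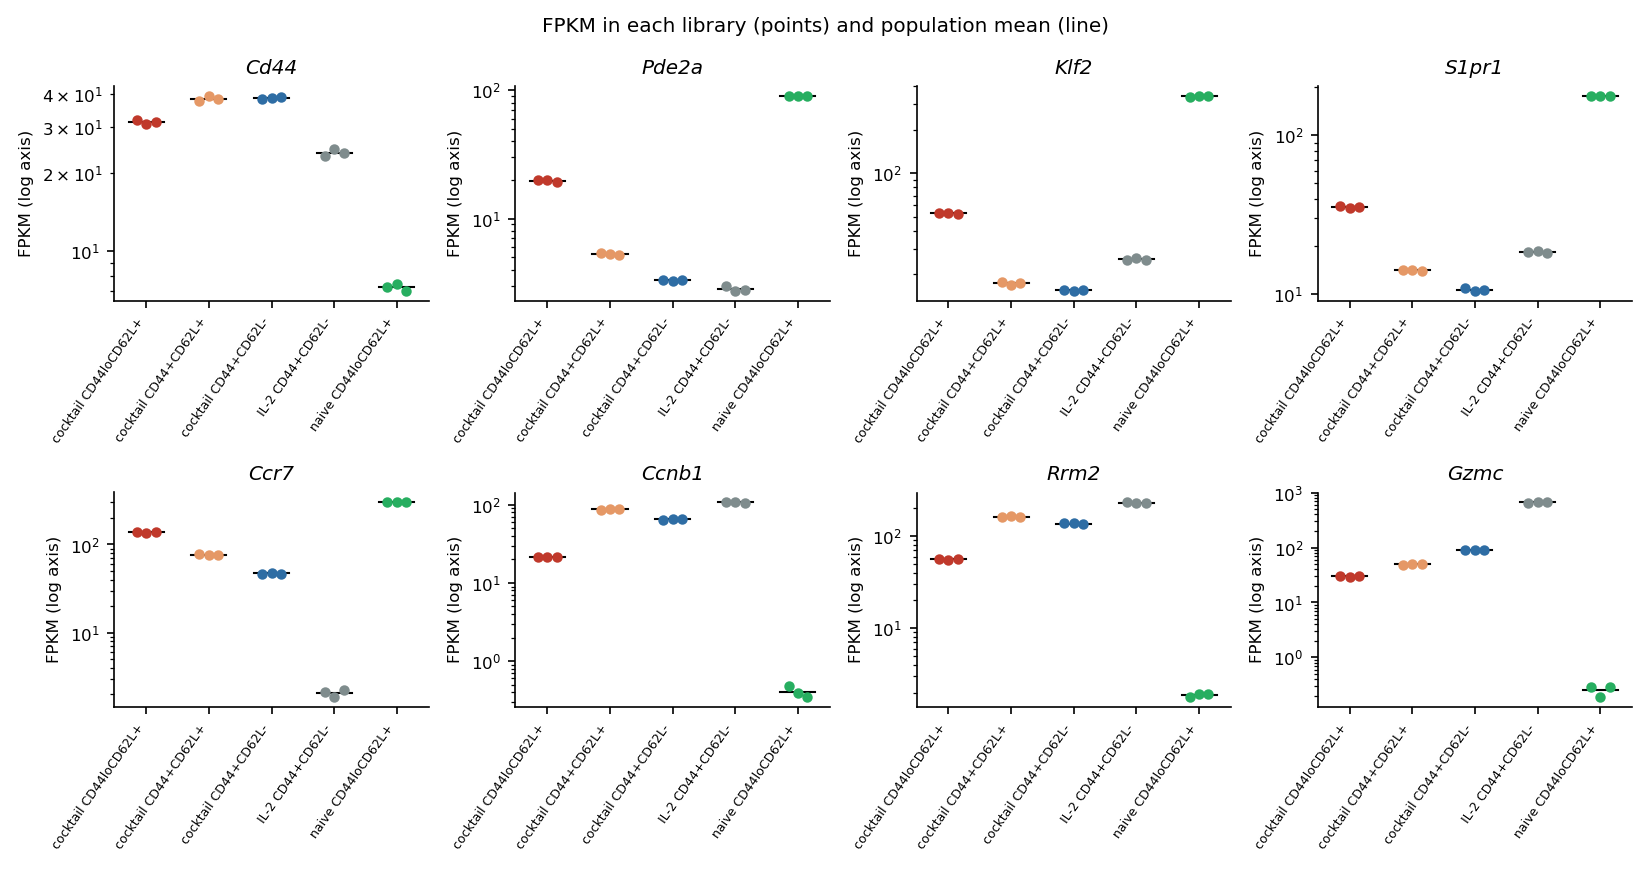
FPKM of 8 genes in each of the 15 libraries (points, log axis with its own range in each panel), with the mean of each population as a line. Pde2a, Klf2, S1pr1 and Ccr7 are highest among cocktail cells in the CD44loCD62L+ libraries, Ccnb1, Rrm2 and Gzmc are lowest there, and Cd44 differs little between the cocktail gates.

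The other homing genes did not move as a group. Of 39 adhesion and homing genes tested of 45, 3 rose (Ccr7 and S1pr1 among them) and 0 fell, and the median log2 difference was -0.03. Without the fold minimum 18 were higher and 19 lower. Gpr183, a receptor for oxysterols that positions lymphocytes in lymphoid tissue, had 14.7, 14.4 and 14.6 FPKM in CD44loCD62L+ libraries and 29.5, 29.1 and 28.6 FPKM in CD44+CD62L- libraries. Its log2 difference was -0.95, just under the minimum for a call. Cxcr6, a receptor of tissue-homing T cells, differed by -0.69 and Adam8, a surface protease, by -0.71.

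Genes of T cell quiescence were mostly higher. Of 24 tested, Klf2, Pik3ip1 and Kdm5b rose and 0 fell, with a median log2 difference of 0.33. By adjusted p alone 21 were higher and 1 lower. Pik3ip1, an inhibitor of PI3 kinase, had 56.3, 57.5 and 57.7 FPKM in CD44loCD62L+ libraries, against 25.3, 25.3 and 25.3 FPKM in CD44+CD62L- libraries (log2 difference 1.15 ± 0.0267). Kdm5b, a histone demethylase, had 9.47, 9.45 and 9.59 FPKM in CD44loCD62L+ libraries, against 4.16, 4.20 and 3.995 FPKM in CD44+CD62L- libraries (1.04 ± 0.0227). With 5 FPKM added before the log the difference of Kdm5b was 0.67 and the call was lost. Both genes were lower in the CD44+CD62L+ libraries than at either end, Pik3ip1 with 23.4, 23.3 and 23.6 FPKM and Kdm5b with 3.29, 3.37 and 3.30 FPKM. Klf6 was the only member lower by adjusted p, at -0.18.

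Other genes among the 15 that rose most were likewise higher in naive cells than in CD44loCD62L+ cells. Pde2a, a phosphodiesterase that breaks down cyclic nucleotides, had 19.95, 19.9 and 19.2 FPKM in CD44loCD62L+ libraries, against 3.30, 3.28 and 3.30 FPKM in CD44+CD62L- libraries. The log2 difference was 2.27 ± 0.0239 (limma adjusted p = 3.83e-16), and naive cells averaged 90.0 FPKM. Ephx1, an epoxide hydrolase, differed by 1.67 and Arl5c, an ARF-like GTPase, by 1.48. Actn1, which cross-links actin filaments, differed by 1.33, and Cmah, which hydroxylates sialic acid, by 1.27. With 5 FPKM added before the log the calls of Cmah (0.999) and of Matk (0.91) were lost. Fam117a (1.39), Nsg2 (1.34), the kinase gene Matk (1.31) and Bambi-ps1 (1.58) were also among them. Bambi-ps1 is named as a pseudogene of Bambi, and reads of the parent gene could be counted in it.

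Itga7, the alpha chain of a laminin-binding integrin, was an exception among them. It had 23.3, 23.1 and 23.7 FPKM in CD44loCD62L+ libraries and 8.47, 8.65 and 8.91 FPKM in CD44+CD62L- libraries, a log2 difference of 1.33 ± 0.0431 (limma adjusted p = 8.93e-12). Naive cells averaged 0.154 FPKM and IL-2 cells 0.114 FPKM, so Itga7 was above both landmarks in every cocktail gate. Ly6c2, a surface marker of memory CD8 T cells, was also higher in cocktail cells than in naive cells. It had 877, 885 and 882 FPKM in CD44loCD62L+ libraries, 623, 621 and 622 FPKM in CD44+CD62L+ libraries and 401, 403 and 405 FPKM in CD44+CD62L- libraries, against a naive mean of 84.1 FPKM. Its near-identical neighbour Ly6c1 ran the other way, with 284, 288 and 287 FPKM in CD44loCD62L+ libraries and 352, 354 and 355 FPKM in CD44+CD62L- libraries (-0.31, not called). Reads of such a pair can be split either way by the counting, so both values are uncertain.

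Mitosis genes had the largest median difference of the 27 pathway lists. Of 66 tested, 57 fell, where 1.48% of all genes tested did, 0 rose and the median log2 difference was -1.21. With 5 FPKM added before the log, 33 fell. By adjusted p alone 65 were lower and 1, the condensin gene Smc4, was higher. The libraries of CD44loCD62L+ and CD44+CD62L- cells did not overlap for any of the 66, nor did they for 77.1% of all genes tested. In bulk RNA, fewer dividing cells and less of these transcripts per dividing cell cannot be told apart. The sequences just before and after the start of 3 of the genes that fell are shown because mitotic promoters are known for paired CCAAT boxes, bound by the factor NF-Y, and for a downstream element, TTTGAA, called the cell cycle genes homology region. Each is the RefSeq window of 250 bases before to 50 bases after the start, on GRCm38.p6, written 5′ to 3′ along the gene's own strand, with CCAAT and TTTGAA in capitals. Aurka lies at chr2:172370521-172370820 (minus strand), Ccnb1 at chr13:100786437-100786736 (minus strand) and Spc25 at chr2:69206164-69206463 (minus strand). The start in the Aurka window is 316 bases inside the whole RefSeq span of the gene, and in the other two windows it is the end of that span.
Aurka: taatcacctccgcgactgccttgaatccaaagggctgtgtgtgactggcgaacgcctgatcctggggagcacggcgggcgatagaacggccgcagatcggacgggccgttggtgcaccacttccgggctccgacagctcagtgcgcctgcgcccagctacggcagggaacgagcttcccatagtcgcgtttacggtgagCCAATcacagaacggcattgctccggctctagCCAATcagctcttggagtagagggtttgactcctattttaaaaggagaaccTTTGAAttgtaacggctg
Ccnb1: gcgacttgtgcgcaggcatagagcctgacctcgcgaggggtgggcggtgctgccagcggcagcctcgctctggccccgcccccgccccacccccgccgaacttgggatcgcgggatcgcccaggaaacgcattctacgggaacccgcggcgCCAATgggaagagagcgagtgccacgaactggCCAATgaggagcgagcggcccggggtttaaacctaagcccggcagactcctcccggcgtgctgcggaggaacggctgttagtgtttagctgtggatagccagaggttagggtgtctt
Spc25: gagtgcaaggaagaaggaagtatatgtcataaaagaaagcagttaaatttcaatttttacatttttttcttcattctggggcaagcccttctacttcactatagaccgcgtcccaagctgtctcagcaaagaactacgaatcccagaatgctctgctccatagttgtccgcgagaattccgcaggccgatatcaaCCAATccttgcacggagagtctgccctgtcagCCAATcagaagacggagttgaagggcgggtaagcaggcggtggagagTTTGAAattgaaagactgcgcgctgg

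In all 3 windows the 2 CCAAT motifs start 32 bases apart on the gene's strand. They start 51 and 19 bases before the start in Aurka, 99 and 67 in Ccnb1, and 55 and 23 in Spc25. TTTGAA begins 33 bases past the start in Aurka and 25 bases past it in Spc25, and these letters are not in the Ccnb1 window. Counted on both strands, CCAAT was in 72 of the 118 lower genes with a window (61.0%), in 11 of 35 higher genes (31.4%), and in 39.8% of the 8009 tested genes with a window and 37.9% of all 27025 RefSeq windows. TTTGAA was in 63 of the 118 (53.4%), in 2 of the 35 (5.71%), and in 11.9% of the 8009 and 18.1% of the 27025. Windows with both motifs numbered 46 of 118 (39.0%) among lower genes and 0 of 35 among higher genes, against 5.14% of the 8009. A CCAAT pair at the spacing of 32 bases was rarer: 5 of the 118 (4.24%), 0 of the 35 and 0.724% of the 8009 held it. That spacing is the one in the 3 windows above, which are among the 5, so the share among lower genes is partly built in. The letters of E2F sites, TTTGGCGC and TTTCCCGC, were in 2.54% and 3.39% of the 118 windows, against 1.14% and 2.26% of the 8009. These are counts of letters and not of bound sites.

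The start of Klf2, the riser with a role in both homing and quiescence, is at chr8:72318812-72319111 (plus strand, same build and window), and none of the 4 motifs is in it. At least 1 of the 4 was in 48% of the 8009 tested windows, in 92 of the 118 lower genes (78%) and in 13 of the 35 higher genes (37.1%). A window without them is therefore common among tested and higher genes and does not single out Klf2.
Klf2: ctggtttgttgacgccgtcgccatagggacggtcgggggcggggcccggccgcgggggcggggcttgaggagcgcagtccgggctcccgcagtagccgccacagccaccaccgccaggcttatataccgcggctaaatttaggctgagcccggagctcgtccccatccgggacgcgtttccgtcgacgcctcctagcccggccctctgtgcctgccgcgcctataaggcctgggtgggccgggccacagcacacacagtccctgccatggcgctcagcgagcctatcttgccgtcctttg

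Aurka (chr2:172356190-172370886), which encodes the kinase that matures the spindle poles, had 11.8, 11.8 and 12.5 FPKM in CD44loCD62L+ libraries, against 37.4, 38.4 and 38.2 FPKM in CD44+CD62L- libraries. The log2 difference was -1.58 ± 0.0558 (limma adjusted p = 2.15e-11). Ccnb1 (chr13:100778739-100786486), the cyclin of mitotic entry, had 21.7, 21.5 and 21.5 FPKM in CD44loCD62L+ libraries, against 64.0, 65.0 and 66.4 FPKM in CD44+CD62L- libraries (-1.55 ± 0.0272, limma adjusted p = 2.55e-14). Its partner kinase Cdk1 (chr10:69335146-69352912) had 15.6, 15.9 and 15.6 FPKM in CD44loCD62L+ libraries, against 45.8, 45.7 and 46.3 FPKM in CD44+CD62L- libraries (-1.49 ± 0.0345). For each of these genes the CD44+CD62L+ libraries were higher than both ends, with 50.4, 52.2 and 49.6 FPKM for Aurka, 87.0, 89.2 and 88.2 FPKM for Ccnb1 and 62.4, 60.9 and 63.3 FPKM for Cdk1.

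Genes with roles from S phase to cell separation were among the named genes that fell. Kpna2, an importin, differed by -1.63, and the kinetochore genes Spc25 and Nuf2 by -1.50 and -1.43. The spindle genes Prc1 and Nusap1 differed by -1.46 and -1.45, Ccna2, the cyclin of S phase and G2, by -1.46, and Top2a, which untangles DNA, by -1.44. Arhgap19, which encodes a GTPase-activating protein, differed by -1.46. Lars2, the mitochondrial leucyl-tRNA synthetase and not a division gene, had 96.1, 95.8 and 96.5 FPKM in CD44loCD62L+ libraries, against 270.2, 275 and 275 FPKM in CD44+CD62L- libraries (-1.50), and the naive mean was 180.1 FPKM. Spc25 had 13.2, 14.47 and 14.1 FPKM in CD44loCD62L+ libraries, against 41.3, 42.1 and 40.3 FPKM in CD44+CD62L- libraries. The members that moved least were Smc4, with 167, 169 and 167 FPKM in CD44loCD62L+ libraries and 142, 143 and 142 FPKM in CD44+CD62L- libraries (0.23), and Pttg1, the securin, at -0.22. Smc4 and Pttg1 were also expressed in naive cells, at means of 129.9 and 39.0 FPKM.

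Mitosis genes were highest in the middle gate of the cocktail culture. The CD44+CD62L+ mean was above both ends for 64 of the 66 mitosis genes, and the CD44loCD62L+ mean was the lowest of the 3 gates for 65. Summed over the list, FPKM ran from 1835 to 1841 in CD44loCD62L+ libraries, from 4978 to 5003 in CD44+CD62L+ libraries and from 3929 to 3949 in CD44+CD62L- libraries. IL-2 libraries had sums of 4429 to 4435 and naive libraries of 399 to 400.3. The CD44loCD62L+ cells thus lay between naive cells and the other cultured cells, and the naive mean was below theirs for 64 of the 66 genes.

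DNA replication and S phase genes differed in the same direction by a smaller amount. Of 59 tested, 12 fell and 0 rose, with a median log2 difference of -0.82, and all 59 were lower by adjusted p alone. The 12 became 3 with 5 FPKM added before the log and 19 with 0.1 FPKM added. Rrm2, the regulated subunit of the enzyme that makes deoxynucleotides, had 56.6, 54.7 and 56.5 FPKM in CD44loCD62L+ libraries, against 138, 137 and 134.5 FPKM in CD44+CD62L- libraries (-1.27 ± 0.0214, limma adjusted p = 1.84e-14). Mcm10, which helps to fire origins, differed by -1.19, or by -0.90 and with no call at 5 FPKM added. Sums over the list were 1844 to 1851 FPKM in CD44loCD62L+ libraries, 3574 to 3587 FPKM in CD44+CD62L+ libraries and 3250 to 3253 FPKM in CD44+CD62L- libraries. IL-2 libraries, at 4455 to 4465 FPKM, were the highest of the 5 populations here, and naive libraries, at 875 to 882 FPKM, the lowest. The smallest difference in the list was that of the transcription factor gene E2f2, at -0.30. Of 32 replication-dependent and variant histone genes tested of 53, 0 were called, 1 was higher and 14 were lower by adjusted p, and H2afx, whose product marks DNA breaks, differed by -0.96.

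**Figure D3:**
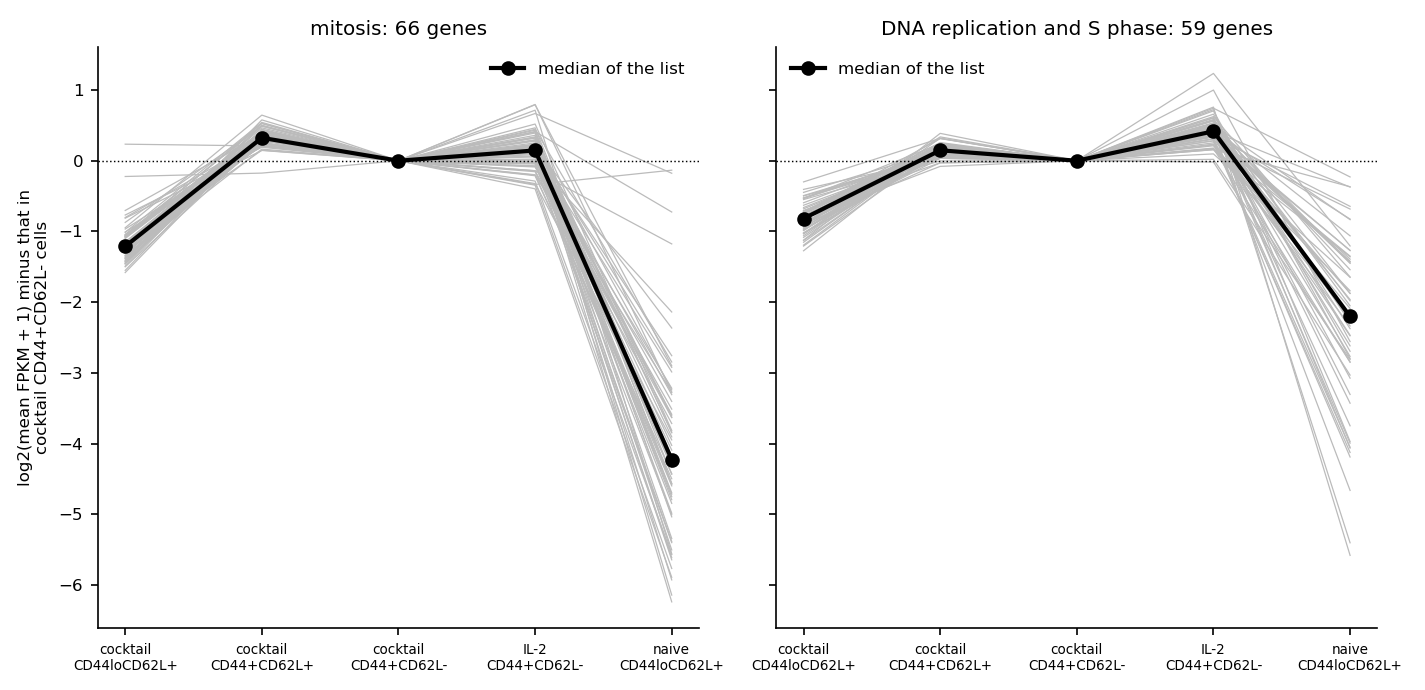
Each grey line follows the mean of 1 gene on the log2(FPKM + 1) scale over the 5 populations, set to 0 in cocktail CD44+CD62L- cells, for 66 mitosis genes (left) and 59 DNA replication genes (right), with the list median in black. Medians are -1.21 and -0.82 in cocktail CD44loCD62L+ cells, lie above 0 in cocktail CD44+CD62L+ and IL-2 cells, and are lowest in naive cells.

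Regulators of the G1 phase differed less than the genes that carry out division. Of 14 D cyclin, partner kinase and CDK inhibitor genes tested of 16, 1 fell, 0 rose and the median was -0.38. The gene that fell was Cdkn2a, itself a CDK inhibitor. It had 8.70, 10.4 and 11.1 FPKM in CD44loCD62L+ libraries, against 20.6, 21.2 and 23.1 FPKM in CD44+CD62L- libraries (-1.04 ± 0.0854, limma adjusted p = 1.32e-07). That call was lost without CD44loCD62L+ library 1 (-0.95), without CD44+CD62L- library 3 (-0.99) or with 5 FPKM added before the log (-0.83). Cdkn2c and Cdkn1a, inhibitors as well, differed by -0.95 and -0.78 and were not called. Cdkn1b, the inhibitor p27 associated with resting T cells, had 64.4, 66.1 and 66.7 FPKM in CD44loCD62L+ libraries and 46.9, 48.2 and 47.7 FPKM in CD44+CD62L- libraries (0.46, not called), and was the only member higher by adjusted p. The D cyclin genes Ccnd2 and Ccnd3 differed by 0.02 (limma adjusted p = 0.105) and -0.20.

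Effector genes were called at a share near that of all genes tested (1.97%). Of 45 cytotoxic and effector genes tested of 48, 1 fell and 0 rose, and the median was -0.19. Without the fold minimum 10 were higher and 29 lower, where 35.5% and 38.8% of all genes tested were. Gzmc, a granzyme, had 30.0, 29.1 and 31.0 FPKM in CD44loCD62L+ libraries, against 90.4, 91.2 and 89.2 FPKM in CD44+CD62L- libraries (-1.56 ± 0.0309, limma adjusted p = 7.66e-14). The CD44+CD62L+ libraries had 48.2, 51.2 and 50.1 FPKM, and IL-2 cells averaged 662 FPKM, so the cocktail gates formed a graded series well under the IL-2 level. Gzma had 124, 125 and 125 FPKM in CD44loCD62L+ libraries and 209, 199.9 and 206 FPKM in CD44+CD62L- libraries, which at -0.71 was not called. Its lowest cocktail values were those of the middle gate, at 88.6, 87.0 and 89.4 FPKM, and the IL-2 mean was 8244 FPKM. The Ly49 receptor gene Klra5 had 3.82, 3.58 and 3.71 FPKM in CD44loCD62L+ libraries and 16.9, 16.6 and 16.5 FPKM in CD44+CD62L- libraries (-1.91 ± 0.0569, limma adjusted p = 3.76e-12), with an IL-2 mean of 119 FPKM. Granzyme and Ly49 genes belong to families of close copies, and their values are uncertain to the extent that reads were shared among them.

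The chemokine genes Ccl5 and Xcl1 went separate ways. Ccl5, in the effector list, had 75.3, 71.6 and 68.5 FPKM in CD44loCD62L+ libraries and 38.2, 43.7 and 41.5 FPKM in CD44+CD62L- libraries (0.79, not called). Xcl1, which attracts cross-presenting dendritic cells, had 79.7, 82.5 and 79.2 FPKM in CD44loCD62L+ libraries and 104.5, 104.2 and 94.7 FPKM in CD44+CD62L- libraries (-0.33, limma adjusted p = 0.0447, not called). It was highest in the CD44+CD62L+ libraries, at 164, 167 and 159 FPKM. Of 28 secreted cytokine and chemokine genes tested of 40, Tnfsf11 fell and 0 rose. Tnfsf11, the gene of RANK ligand, had 11.9, 11.99 and 12.4 FPKM in CD44loCD62L+ libraries, against 25.4, 27.4 and 26.9 FPKM in CD44+CD62L- libraries (-1.08 ± 0.0303). This call too was lost with 5 FPKM added (-0.89), and with 0.1 FPKM added 3 genes of the list fell.

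Among inhibitory receptors and exhaustion genes, 1 of 24 rose, 1 fell and the median was 0.04. Pdcd1, the gene of the inhibitory receptor PD-1, had 13.9, 12.8 and 13.7 FPKM in CD44loCD62L+ libraries, against 32.7, 32.6 and 31.7 FPKM in CD44+CD62L- libraries (-1.20 ± 0.0730, limma adjusted p = 5.81e-09). The CD44+CD62L+ libraries, at 26.4, 26.4 and 24.2 FPKM, were nearer to the CD44+CD62L- end, and the IL-2 mean was 242 FPKM. Nr4a1, an orphan nuclear receptor induced by T cell receptor signals, had 9.04, 9.26 and 9.24 FPKM in CD44loCD62L+ libraries, against 3.07, 3.15 and 3.23 FPKM in CD44+CD62L- libraries (1.30 ± 0.0310, limma adjusted p = 4.1e-13), a call lost with 5 FPKM added (0.80). With 0.1 FPKM added 2 genes of the list fell. Other receptors of the list stayed under the minimum in both directions, with Btla at 0.92, Cd200r1 at -0.92 and Cd160 at -0.77.

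Nr4a1 was also the only one of 35 immediate early genes that rose, and 0 fell. Without the fold minimum 28 of them were higher and 5 lower, and the median was 0.35. With 0.1 FPKM added 3 rose, Egr3 among them. The early growth response genes Egr1 and Egr3 differed by 0.92 and 0.93. Egr1 had 19.9, 20.6 and 20.1 FPKM in CD44loCD62L+ libraries and 10.3, 10.02 and 10.4 FPKM in CD44+CD62L- libraries, and IL-2 cells averaged 81.0 FPKM.

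Tcf7, which encodes TCF1, had 379, 374 and 375 FPKM in CD44loCD62L+ libraries and 236, 236.5 and 240.0 FPKM in CD44+CD62L- libraries (0.66 ± 0.0394, not called). Its relative Lef1 averaged 41.7 FPKM in CD44loCD62L+ cells and 24.2 FPKM in CD44+CD62L- cells (0.76, not called). Both were higher in naive cells, at means of 679.9 and 129 FPKM, while IL-2 cells averaged 2.16 FPKM for Tcf7. Of the 21 Wnt and beta-catenin genes tested, including Tcf7 and Lef1, 0 were called, 11 were higher and 5 lower by adjusted p, and the median was 0.14. Of 21 memory T cell genes, Ly6c2 rose and 0 fell, 9 were higher and 9 lower by adjusted p, and the median was 0.08. Socs3 differed by 0.90, Id3 by 0.86 and Eomes by 0.49, while Cxcr6 differed by -0.69, Il2rb by -0.35 and Xcl1 by -0.33. Batf3, a basic leucine zipper factor, had 4.25, 3.91 and 3.52 FPKM in CD44loCD62L+ libraries, against 17.7, 15.8 and 16.2 FPKM in CD44+CD62L- libraries (-1.85 ± 0.0644, limma adjusted p = 1.92e-11).

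Cytokine receptor and signalling genes gave 1 call among 51, a share near that of all genes tested (1.97%). The call was Tnfrsf8, the gene of CD30, which fell at low levels. Its libraries had 0.470, 0.322 and 0.305 FPKM in CD44loCD62L+ cells and 1.59, 1.97 and 1.93 FPKM in CD44+CD62L- cells. The call was lost with 5 FPKM added, and 2 genes of the list fell with 0.1 FPKM added. By adjusted p alone 32 were higher and 14 lower. The signalling subunit gene Il6st differed by 0.79 and the survival kinase gene Pim2 by 0.72, while Il12rb1 differed by -0.70. Il2ra, the high-affinity chain of the IL-2 receptor, averaged 46.6 FPKM in CD44loCD62L+ cells and 72.6 FPKM in CD44+CD62L- cells (-0.63).

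**Figure D4:**
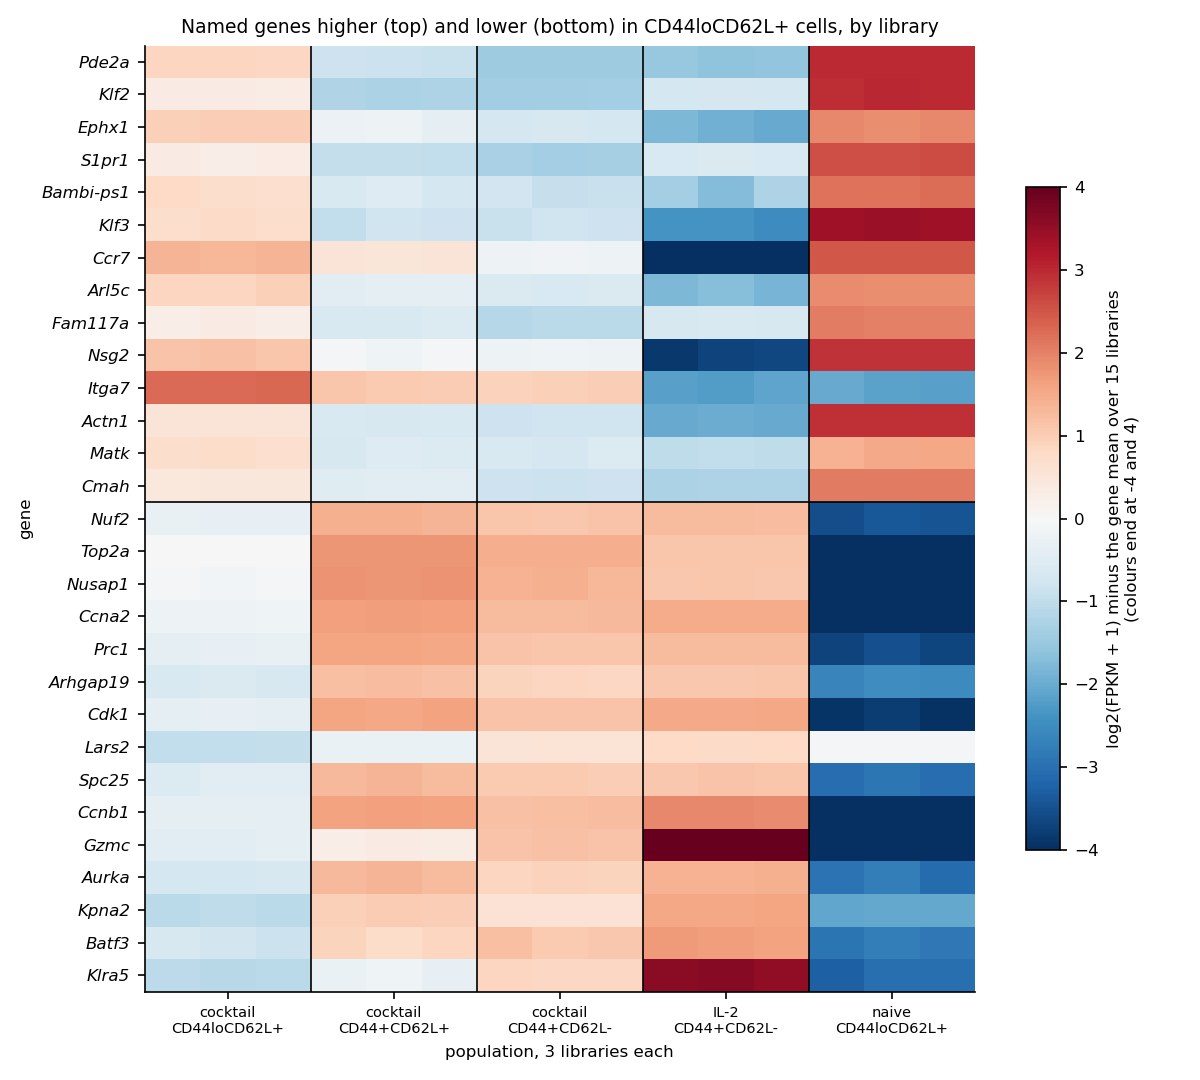
Each row is a named gene, those that rose most above those that fell most, and each column a library, grouped by population; colour is log2(FPKM + 1) minus the gene's mean over 15 libraries. Among the genes that rose, naive libraries are the darkest red except for Itga7, and most genes that fell are darkest blue in naive libraries and red in the CD44+CD62L+, CD44+CD62L- and IL-2 libraries.

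Most biosynthetic genes were lower by adjusted p and did not reach the fold minimum. Of 42 genes of the amino acid response, transport and serine synthesis, Psat1 fell and 0 rose, and 36 were lower and 4 higher by adjusted p, with a median of -0.42. Psat1, a serine synthesis enzyme, had 40.7, 40.1 and 39.5 FPKM in CD44loCD62L+ libraries, against 84.6, 84.3 and 87.8 FPKM in CD44+CD62L- libraries (-1.08 ± 0.0199, limma adjusted p = 4.11e-14). With 0.1 FPKM added 8 genes of the list fell, and without CD44loCD62L+ library 3 there were 2. Asns, asparagine synthetase, stood just short of a call at -0.98, and Slc7a5, the large neutral amino acid transporter, at -0.84. Of 37 sterol and fatty acid synthesis genes, Fads2 fell, 0 rose, and 32 were lower and 2 higher by adjusted p, with a median of -0.31. The call of Fads2 was lost with 5 FPKM added. Of 26 endoplasmic reticulum chaperone genes, Sdf2l1 fell, 0 rose, and 23 were lower and 2 higher by adjusted p, with a median of -0.35. Sdf2l1 had 19.6, 18.3 and 18.3 FPKM in CD44loCD62L+ libraries and 37.8, 38.6 and 41.3 FPKM in CD44+CD62L- libraries (-1.03 ± 0.0424). Without CD44+CD62L- library 3 or after quantile normalization its difference was -0.99, with 5 FPKM added it was -0.90, and the call was lost in each.

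Energy metabolism gave no call, where 1.97% of all genes tested were called. Of 32 glycolysis and pentose phosphate genes, 10 were higher and 18 lower by adjusted p, with a median of -0.06. Of 53 oxidative phosphorylation genes, 6 were higher and 43 lower, with a median of -0.21. Cytochrome c, Cycs, had the lowest difference of the named members, at -0.59. Of 29 fatty acid oxidation genes, 6 were higher and 15 lower, and Cpt1a, which admits fatty acids to mitochondria, differed by -0.41. Of 27 hypoxia genes, 15 were higher and 7 lower. Vegfa among them averaged 31.0 FPKM in CD44loCD62L+ cells and 15.6 FPKM in CD44+CD62L- cells (0.95, not called).

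Ribosomal protein genes were higher by small amounts. Of 79 tested, 0 were called, but 72 were higher and 4 lower by adjusted p, and the median was 0.16. Rps16 had 3287, 3278 and 3297 FPKM in CD44loCD62L+ libraries, 2712, 2711 and 2713 FPKM in CD44+CD62L+ libraries and 2247, 2248 and 2240 FPKM in CD44+CD62L- libraries (0.55, limma adjusted p = 2.06e-17). The gates formed an ordered series for it, and the naive mean was higher still, at 4036 FPKM. Rpl26 and Rps27 went against the group with unsteady values, Rps27 having 12.9, 72.0 and 9.69 FPKM in CD44loCD62L+ libraries and 79.0, 43.5 and 8.54 FPKM in CD44+CD62L- libraries. Ribosomal protein genes have many processed pseudogenes, with which reads can be shared. Of 50 Myc and ribosome biogenesis genes, Mxd3, a Myc antagonist of the Mad family expressed in dividing cells, fell (-1.09, or -0.96 and no call with 5 FPKM added) and 0 rose, with a median of -0.06.

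Of 53 type I interferon response genes, Oas2 rose, 0 fell, and 36 were higher and 7 lower by adjusted p, with a median of 0.16. Oas2, a sensor enzyme for double-stranded RNA, had 11.7, 11.3 and 11.6 FPKM in CD44loCD62L+ libraries, against 4.96, 5.02 and 5.31 FPKM in CD44+CD62L- libraries (1.04 ± 0.0280, limma adjusted p = 1.32e-12), a call lost with 5 FPKM added (0.71). Its relatives Oasl1 and Oasl2 differed by 0.83 and 0.82. No call was made among 37 T cell identity and receptor signalling genes, 31 Bcl2 family and cell death genes or 16 heat shock genes, whose medians were 0.10, 0.05 and -0.20. Cd7, an immunoglobulin family receptor of T cells, averaged 27.6 FPKM in CD44loCD62L+ cells, 9.10 FPKM in CD44+CD62L+ cells and 15.3 FPKM in CD44+CD62L- cells, so the middle gate was lowest, and naive cells averaged 190.2 FPKM.

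**Figure D5:**
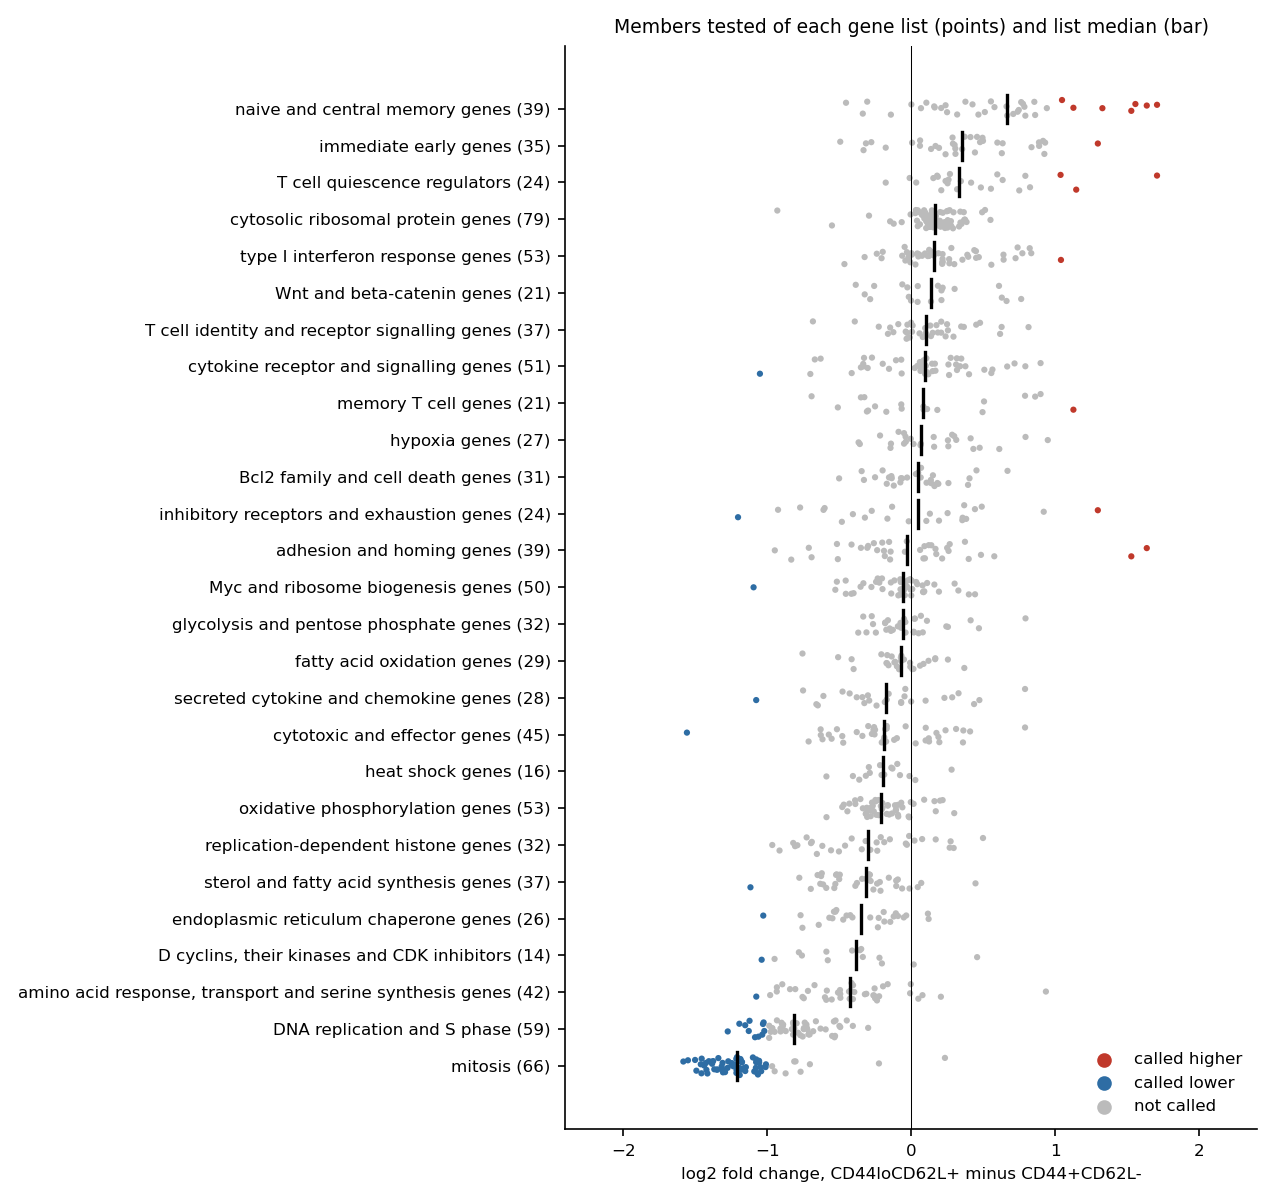
Each point is the log2 difference (CD44loCD62L+ minus CD44+CD62L- cocktail cells) of a tested member of a gene list, with the number tested in parentheses and the list median as a bar. Medians run from 0.66 for naive and central memory genes to -0.82 for DNA replication genes and -1.21 for mitosis genes, and most lists between them hold at most 1 called gene.

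Markers of other cells that the cultures could hold were tested as well, and none was called. Each sum below covers all members of a list with an entry, tested or not. Of 29 dendritic cell and macrophage markers 19 were tested. The list summed to between 302 and 312 FPKM in CD44loCD62L+ libraries and between 332 and 341 FPKM in CD44+CD62L- libraries. Naive libraries had 341 to 345 FPKM and IL-2 libraries 215 to 222 FPKM. By adjusted p 4 tested members of this list were higher and 10 lower, with a median log2 difference of -0.21. Lyz2, a lysozyme of myeloid cells, averaged 11.47 FPKM in CD44loCD62L+ cells and 21.3 FPKM in CD44+CD62L- cells (-0.84). The class II gene H2-Ab1 averaged 19.9 FPKM in CD44loCD62L+ cells and 13.7 FPKM in CD44+CD62L- cells (0.51). B cell markers (8 tested of 9) summed to between 2.79 and 3.07 FPKM in CD44loCD62L+ libraries and between 2.14 and 2.42 FPKM in CD44+CD62L- libraries, with Ms4a1 and Pax5 listed at 0. NK cell markers (4 tested) summed to between 60.5 and 61.3 FPKM in CD44loCD62L+ libraries and between 58.3 and 59.7 FPKM in CD44+CD62L- libraries. CD4 T cell markers (3 tested) summed to between 8.14 and 9.01 FPKM in CD44loCD62L+ libraries and between 11.04 and 11.49 FPKM in CD44+CD62L- libraries. Erythroid, platelet and neutrophil markers (5 tested) summed to 1.498 to 1.708 FPKM in CD44loCD62L+ libraries and 3.97 to 4.83 FPKM in CD44+CD62L- libraries, with Hbb-b1, Camp and Elane listed at 0. The part of these cells in the differences above was not tested.

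The called genes were also set against the landmark populations. IL-2 against naive cells shares no library with the comparison of the gates, and was added after the data were examined. In it 1981 genes were called higher in IL-2 cells (17.6%) and 1538 lower (13.7%) by the same rule. Of the 166 genes that fell in CD44loCD62L+ cells, 159 were called higher in IL-2 than in naive cells, which is 95.8% of the 166 and 8.03% of the 1981, and 1 was called lower. Of the 55 genes that rose, 38 were called lower in IL-2 than in naive cells, which is 69.1% of the 55 and 2.47% of the 1538, and 1 was called higher. The middle gate did not lie midway for most genes that fell: its mean was above both ends for 137 of the 166, between them for 26, equal to an end for 2 listed at 0 and below both for 1. For the 55 genes that rose it was between the ends for 41, equal to an end for 5 listed at 0, below both for 9 and above both for 0. The counts of 159 and 38 became 66 and 16 with 5 FPKM added before the log and 293 and 108 with 0.1 FPKM added, as the sets of called genes shrank and grew. The counts of 137 and 41 became 58 and 16 with 5 FPKM added and 208 and 114 with 0.1 FPKM added.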

How the data were processed

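RNA was extracted from sorted cells with the Arcturus PicoPure kit for Illumina libraries, per the labels' protocols. The authors deposited normalized FPKM values, 1 column for each of 15 libraries and 23284 entries. The submitters' processing notes name TopHat2 2.0.9, Cuffdiff 2.1.1 and mm10. Nothing on annotation, settings or strand use is given in the sources used here. Of the entries, 6039 were at 0 in all libraries, Eef1a1 among them, so a 0 can be a failed estimate. Whole reads were not recovered (87.97% of ratios below 0.1 FPKM lay within 0.05 of a whole number, but 14.44% from 1 to 3 FPKM, where chance gives 10%), so no count test was run.

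Groups came from the labels. Genes averaging 1 FPKM or more in any of 5 populations were fitted on log2(FPKM + 1) with limma 3.58.1 in R 4.3.3 (lmFit, eBayes with trend; population as the only term), with Benjamini-Hochberg adjustment over 11242 genes. The steps were checked on simulated data. An exact permutation test of 3 against 3 libraries cannot go below a two-sided p of 0.1.

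The members and the 27 pathway and 6 marker lists were chosen with earlier results of these data known. Named genes were the sort markers, the 15 highest and 15 lowest called genes (10 FPKM or more on their higher side, libraries without overlap, no predicted genes, small RNAs or receptor segments), and up to 3 members of each list per direction at 5 FPKM or more. Other called list members were named after their values were seen. Some genes are not reported here: they stayed in all fits and counts and were left out of the text, the points by gene and the named rows of the figures. Promoter windows and coordinates are RefSeq, GRCm38.p6. Alternatives were pseudocounts 0.1 and 5, 2 other filters, 2 other scalings, the 6 libraries alone, a replicate block, no trend, p alone, gene classes left out and each library left out.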

Additional observations from a re-analysis of the deposited data

How the results depend on the processing

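The number of called genes depended on the added constant and the fold minimum. With 0.1 FPKM added in place of 1, 463 genes were called, 145 higher and 318 lower, and with 5 FPKM added 94 were called, 24 higher and 70 lower; a larger constant shrinks the differences of low genes by construction. Without the fold minimum 8347 passed, 3989 higher and 4358 lower. Leaving out each library in turn gave 222 to 236 calls, 51 to 65 higher and 168 to 176 lower. All other settings run gave numbers of called genes within 1.5 times the main ones, and none of the 188 named genes reversed in any setting run. List medians were less steady. Of 33, 20 were marked as moved with 5 FPKM added, 20 after quantile normalization and 13 with 0.1 FPKM added. With the filter of 5 FPKM 9 were, with the 6 libraries alone 8 were, and fewer in the other settings. With 5 FPKM added, 33 mitosis genes and 3 replication genes were lower, and 10 named genes lost their call: Matk, Cmah, Mcm10, Cdkn2a, Kdm5b, Nr4a1, Tnfsf11, Oas2, Sdf2l1 and Mxd3. With 0.1 added, 19 replication genes were lower. Sdf2l1 also lost its call after quantile normalization (-0.99), where Vegfa gained one (1.00). Asns gained a call without CD44loCD62L+ library 3 (-1.001) and Rpl26 without CD44loCD62L+ library 2 (-1.08).

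Same-numbered libraries were not treated as pairs. Their deviations correlated at 0.0778, 0.00274 and 0.0938, and those of libraries with different numbers at -0.165 to 0.0682. With the replicate block, 220 genes were called, 55 higher and 165 lower.

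The absolute depth is unknown, and the limits of low genes could not be set from counts. With technical replicates of a single culture, differences between cultures were not measured.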

Other observations

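Some called genes outside the lists were named after their values were seen. Of 14 tubulin genes tested, a set put together after values were seen, 4 were called lower and 0 higher (Tuba1b, Tuba1c, Tubb4b and Tubb6). Tuba1b had 227, 222 and 224 FPKM in CD44loCD62L+ libraries and 551, 547 and 554 FPKM in CD44+CD62L- libraries (log2 difference -1.29), Tuba1c differed by -1.39 and Tubb4b by -1.02, and Stmn1, which binds tubulin, by -1.02. Tubulin genes are close copies, so their values are uncertain. The interferon-induced membrane protein genes Ifitm1 and Ifitm2 fell by 1.21 and 1.15 on the log2 scale. Ifitm1 had 24.96, 24.1 and 23.5 FPKM in CD44loCD62L+ libraries, 24.3, 27.01 and 27.5 FPKM in CD44+CD62L+ libraries and 58.2, 56.0 and 57.8 FPKM in CD44+CD62L- libraries. Clec12a, an inhibitory C-type lectin receptor, had 0.804, 0.887 and 0.801 FPKM in CD44loCD62L+ libraries and 7.22, 7.46 and 8.04 FPKM in CD44+CD62L- libraries. P2rx7, the ATP-gated channel, differed by -1.07.

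Among genes that rose, Myb, a transcription factor of progenitor cells, had 22.2, 21.2 and 22.5 FPKM in CD44loCD62L+ libraries and 9.89, 9.68 and 9.61 FPKM in CD44+CD62L- libraries (1.10), and the naive mean was 9.59 FPKM. St6gal1, a sialyltransferase, differed by 1.42, Txk, a Tec family kinase, by 1.03, and Tlr1 by 1.03. H2-Ob, a class II chaperone subunit, had 6.47, 6.70 and 6.86 FPKM in CD44loCD62L+ libraries and between 1.18 and 1.2 FPKM in CD44+CD62L- libraries, and the naive mean was 38.7 FPKM.

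The 9 called genes listed at 0 throughout a population were all small RNA genes. Snord47, Rnu73b, Scarna8 and Snora23 were listed at 0 in all CD44loCD62L+ libraries, and Mir677, Snord104, Mir466i, Snora30 and Mir186 in all CD44+CD62L- libraries. No fold is given for them.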
